A study of Rattus norvegicus with 6 samples.

Results

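The phagocyte NADPH oxidase genes examined here were CYBA, CYBB, NCF1, NCF4 and RAC2, 5 of the 17648 genes listed in an RNA sequencing dataset of cultured rat spinal cord neurons. They were chosen by gene symbol, with earlier results of these data known, and all 5 were found. The dataset came from neonatal Sprague-Dawley rats and held 6 libraries. In 3 of them, Glu + siR-Con, the cells carried a non-targeting small interfering RNA (siRNA), and in the other 3, Glu + siR-GAL3, an siRNA that silences galectin-3 (GAL3). These are called the controls and the knockdowns below, and their values are always given in the order of replicates 1, 2 and 3. The cells of all 6 libraries were treated with Ara-C at 0.05 mg/mL against dividing cells and cultured for 3 days. Both groups then received 10 μM glutamate for 1 h and were kept for 16 h without it, according to the methods of the study and the design text. The sample labels instead give saline for Glu + siR-Con, and they call the GAL3 samples a knockout, so that glutamate would differ between the groups if the labels were right. The sources name no separate cultures or litters for the replicates, and p-values measure only the spread between these libraries.

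The phagocyte NADPH oxidase, also called NOX2, passes electrons from NADPH across a membrane to oxygen and makes superoxide. Its catalytic subunit gp91phox, the product of CYBB, sits in the membrane with p22phox, the product of CYBA. On activation, cytosolic subunits, among them p47phox (NCF1) and p40phox (NCF4), move to this pair together with a Rac GTPase, which is RAC2 in many blood-derived cells. In the central nervous system the complex is best known from microglia. Without gp91phox, p22phox or p47phox, phagocytes cannot kill many microbes, which is the basis of chronic granulomatous disease.

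The promoters are shown because CYBB and CYBA differed more between the groups than NCF1 did, as described further on. A promoter of 300 bases (250 before the start of the gene and 50 after it) was available for CYBA, CYBB and NCF1 in the RefSeq annotation of rat assembly GRCr8. The genome build behind the expression values is not given in the sources used here. Capitals mark matches on either strand to GAGGAA, the core bound by PU.1 (SPI1), and to GAAANNGAA, a core of the interferon-stimulated response element. The sequences run 5′ to 3′ on the strand of the gene, which is the minus strand for CYBB (chrX:16065016-16065315) and CYBA (chr19:67404165-67404464) and the plus strand for NCF1 (chr12:28121635-28121934).
CYBB: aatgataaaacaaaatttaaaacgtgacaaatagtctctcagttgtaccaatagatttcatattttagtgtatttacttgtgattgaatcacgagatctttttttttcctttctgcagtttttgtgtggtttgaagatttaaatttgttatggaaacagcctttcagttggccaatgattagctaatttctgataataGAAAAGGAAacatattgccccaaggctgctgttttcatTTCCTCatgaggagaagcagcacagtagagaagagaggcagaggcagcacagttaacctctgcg
CYBA: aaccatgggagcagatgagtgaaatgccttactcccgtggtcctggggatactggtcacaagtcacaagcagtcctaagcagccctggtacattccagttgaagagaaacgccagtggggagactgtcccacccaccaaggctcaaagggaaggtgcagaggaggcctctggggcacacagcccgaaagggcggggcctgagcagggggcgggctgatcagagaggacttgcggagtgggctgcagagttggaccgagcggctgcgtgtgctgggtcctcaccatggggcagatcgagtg
NCF1: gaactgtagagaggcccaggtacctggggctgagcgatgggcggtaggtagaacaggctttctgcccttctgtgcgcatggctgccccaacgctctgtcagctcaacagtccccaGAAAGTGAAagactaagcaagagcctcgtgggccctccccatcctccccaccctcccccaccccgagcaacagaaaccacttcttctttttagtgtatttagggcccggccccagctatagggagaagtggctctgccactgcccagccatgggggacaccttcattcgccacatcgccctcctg

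The CYBB promoter held both motifs, GAAANNGAA from base -52 to -44 and, on the opposite strand, GAGGAA from base -14 to -9, counted from the annotated start, and they do not overlap. The NCF1 promoter held GAAANNGAA from base -135 to -127, and the CYBA promoter held neither motif in this window. Of 33469 promoters of this length, 27.6% held GAGGAA and 9.71% held GAAANNGAA. These matches describe letters in the annotated sequence and were not tested for binding.

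The deposited values derive from FPKM, a fragment count scaled by transcript length and library size. They were corrected further by the authors, and 3.86% of them lay below 0. The depth of each library is unknown. By values that were exactly equal between libraries, 3 library sets could be told apart. Replicate 1 of both groups made up the first. Control replicates 2 and 3 formed the second set with knockdown replicate 3. The remaining library, siR-GAL3 replicate 2, was alone, so that this library had no control in its set. LGALS3, the silenced gene, stood at 77.4, 54.4 and 62.4 across the controls and -1.64, 32.3 and 18.5 across the knockdowns, lower in every knockdown library.

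Glial markers were high in these cultures, which the labels call neurons. GFAP, the astrocyte filament, averaged 655.4 in the controls and 523.7 in the knockdowns, whereas the mean of RBFOX3, which encodes the neuronal marker NeuN, over all 6 libraries was 0.383. MAP2, a neuronal microtubule protein, was the highest of the 9 listed neuron markers, with a mean of 16.95. In bulk RNA, a different number of cells of a type and a different amount of RNA per cell cannot be told apart.

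Of the 5 oxidase members, the 4 genes CYBB, CYBA, NCF4 and RAC2 were higher in every Glu + siR-GAL3 library than in every Glu + siR-Con library, and NCF1 was not. Among all 17648 listed genes, 9.01% were higher without overlap. Among the 8495 genes whose mean reached 1, which were tested, the share was 10.3%. CYBB, CYBA, NCF1 and RAC2 passed this filter, and NCF4 did not. CYBB, with a mean of 1.29 over all libraries but 0.865 in the controls, passed only through its knockdown values. No member passed limma after Benjamini-Hochberg adjustment at 0.05, and neither did any other gene (0% of those tested, with 736 genes at an unadjusted p under 0.05). Even the silenced gene LGALS3 did not pass, with a log2 fold change of -2.91 (limma adjusted p = 0.571). CYBB, CYBA and RAC2 were higher at an unadjusted p under 0.05, as were 4.41% of all genes tested. An adjusted p under 0.05 is also what the supplement of the study names for sequencing libraries. For its injury datasets the study names a log2 fold change over 1 with an unadjusted p under 0.05. By these thresholds, here on the log2(value + 1) scale, no member was called, and 0.259% of the genes tested were called higher. The study itself reports differentially expressed genes in both directions between these groups, but does not state which of these thresholds gave them. Its genes can therefore not be set directly against the absence of genes passing adjustment here.

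**Figure D1:**
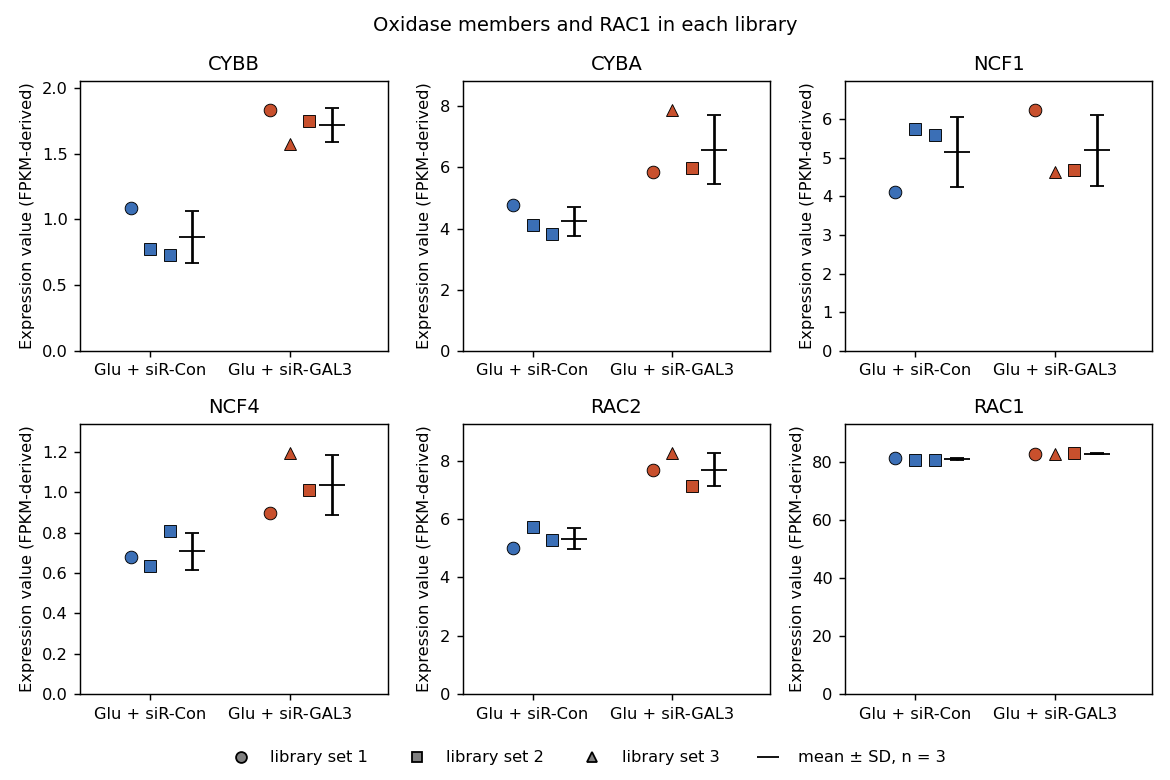
Expression value (derived from FPKM by the authors, linear scale from 0) of CYBB, CYBA, NCF1, NCF4, RAC2 and RAC1 in each library, by group. Points are libraries, their shape gives the library set, and bars are the mean ± SD of 3 libraries. CYBB, CYBA, NCF4 and RAC2 are higher in all Glu + siR-GAL3 libraries, RAC1 is higher by 2.25% of the mean, and NCF1 is lowest in siR-Con replicate 1 and highest in siR-GAL3 replicate 1.

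CYBB, the catalytic subunit, had values of 1.09, 0.773 and 0.730 across the controls and 1.83, 1.58 and 1.75 across the knockdowns. Its lowest siR-GAL3 value was thus above its highest siR-Con value. The means were 0.865 ± 0.197 and 1.72 ± 0.131 (SD, n = 3 each), a ratio of 1.99, the highest among the members. In limma the log2 fold change of (value + 1) was 0.55 (standard error 0.09, 95% interval 0.34 to 0.76, unadjusted p = 0.000453, Benjamini-Hochberg adjusted p = 0.129). Because the value added before the logarithm is large beside a gene this low, that figure understates the change. With 0.1 added in place of 1, the log2 fold change was 0.93. CYBB passed the filter only through its knockdown values, and fitted with all listed genes its limma adjusted p was 0.248. The ratio of siR-GAL3 to siR-Con was 1.68 within the first library set and 2.33 within the second. An exact permutation test gave p = 0.1 (two-sided) for CYBB, as it did for CYBA, NCF4 and RAC2, and 3 against 3 libraries cannot give less.

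CYBA encodes the partner that stabilizes gp91phox in the membrane and that also serves other NOX enzymes. Its values were 4.77, 4.12 and 3.83 across the controls and 5.86, 7.88 and 5.99 across the knockdowns. All siR-GAL3 values were higher, and siR-GAL3 replicate 2, which had no control in its set, was the highest. The means were 4.24 ± 0.482 and 6.58 ± 1.13 (SD, n = 3 each), a ratio of 1.55. The log2 fold change was 0.53 (standard error 0.12, 95% interval 0.24 to 0.82, limma adjusted p = 0.262). Within the library sets the ratio was 1.23 in the first and 1.51 in the second.

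RAC2 encodes the Rac GTPase of blood-derived cells that switches on the oxidase when it is bound to GTP. It had values of 4.99, 5.72 and 5.27 across the controls and 7.68, 8.26 and 7.13 across the knockdowns. The groups were apart by more than the range within either. The means were 5.33 ± 0.366 and 7.69 ± 0.566 (SD, n = 3 each), a ratio of 1.44, and the log2 fold change was 0.46 (standard error 0.08, 95% interval 0.27 to 0.65, limma adjusted p = 0.149). The ratio was 1.54 within the first library set and 1.30 within the second.

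NCF4 encodes p40phox, a cytosolic subunit that binds a phosphoinositide of phagosome membranes. It was the lowest member, with values of 0.677, 0.634 and 0.809 across the controls and 0.899, 1.19 and 1.01 across the knockdowns. Its means were 0.707 ± 0.0913 and 1.03 ± 0.150 (SD, n = 3 each), a ratio of 1.46. Since its mean over all libraries was 0.871, it was fitted only with all listed genes, where its log2 fold change was 0.25 (standard error 0.08, 95% interval 0.06 to 0.44, limma adjusted p = 0.433). With 0.1 added in place of 1, this was 0.49. The ratio within the library sets was 1.33 and 1.40.

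NCF1 encodes p47phox, the organizer that is phosphorylated when the cell is triggered and then brings other cytosolic subunits to the membrane. It had values of 4.11, 5.75 and 5.58 across the controls and 6.24, 4.64 and 4.69 across the knockdowns. The groups overlapped, and siR-Con replicate 1 and siR-GAL3 replicate 1, which form the first library set, were the lowest and the highest library. The means were 5.15 ± 0.907 and 5.19 ± 0.909 (SD, n = 3 each). The log2 fold change was 0.01 (95% interval -0.33 to 0.35, limma adjusted p = 0.979). Within the library sets the direction was opposite, with a ratio of 1.52 in the first and of 0.827 in the second. Without siR-Con replicate 1 the log2 fold change was -0.12, and without siR-GAL3 replicate 1 it was -0.11.

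**Figure D2:**
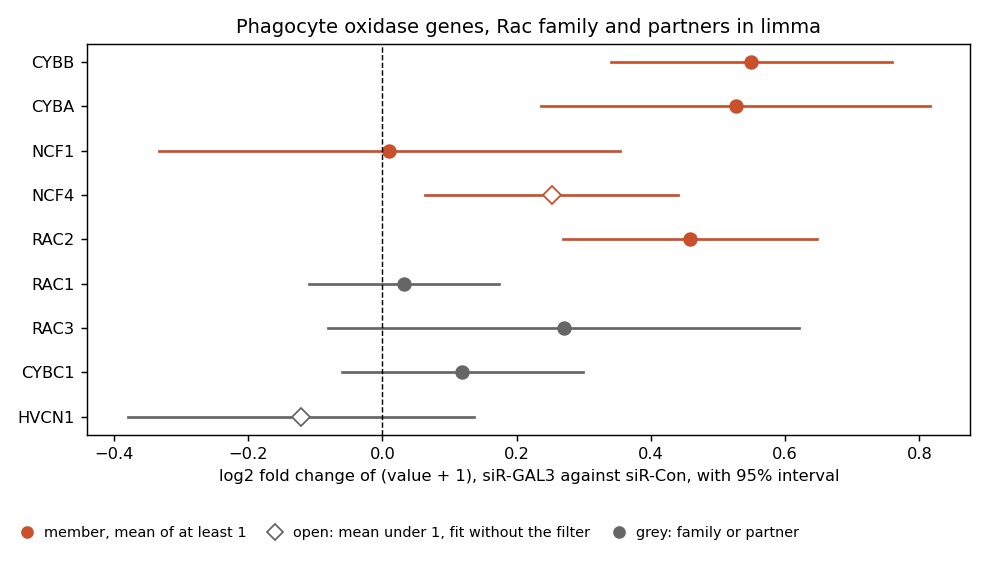
Log2 fold change of (value + 1) in the knockdowns against the controls (horizontal axis) with its 95% interval in limma, for the members (orange) and for the Rac family and oxidase partners (grey). Open diamonds are genes with a mean under 1, taken from the fit without the filter. The intervals of CYBB, CYBA, NCF4 and RAC2 lie above 0, and those of NCF1, RAC1, RAC3, CYBC1 and HVCN1 include 0.

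Partners of the oxidase that are not members were taken from a list of its family and partners. CYBC1, which encodes a chaperone needed for gp91phox to accumulate, averaged 1.72 ± 0.211 and 1.95 ± 0.0941 (SD, n = 3 each), with overlapping groups and a log2 fold change of 0.12 (95% interval -0.06 to 0.30). This was 0.069 without siR-Con replicate 2 and 0.18 without siR-Con replicate 3. HVCN1, the proton channel that offsets the charge moved by the oxidase, averaged 0.543 ± 0.155 and 0.418 ± 0.138 (SD, n = 3 each), and it was below the filter.

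The other NADPH oxidases were near the bottom of the scale. NOX1, NOX3, NOX4, DUOX1, DUOX2, NOXA1, NOXO1 and DUOXA2 all stayed below 0.1 in every library, 8 of the 14 genes of the family and partner list. NOX4, which works with p22phox but needs no cytosolic subunit, had means of 0.0199 ± 0.00624 and 0.0305 ± 0.00476 (SD, n = 3 each), and DUOXA1, a maturation factor of the DUOX enzymes, of 0.118 ± 0.0431 and 0.111 ± 0.00305 (SD, n = 3 each). CYBB was therefore the highest of the listed catalytic NOX and DUOX genes in every library. A low value need not mean that a gene was silent, since GPX4, which most cells express, was listed at 0.00066 or less in every library.

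Among the Rac GTPases, RAC1, the form made by nearly all cells, was by far the most abundant on this scale, which is per transcript length. Its values were 81.4, 80.7 and 80.7 across the controls and 82.5, 82.7 and 82.9 across the knockdowns. The siR-GAL3 values were all higher, but by 2.25% of the mean, and replicates 2 and 3 of the controls had an identical value. In limma the log2 fold change of RAC1 was 0.03 (95% interval -0.11 to 0.17, adjusted p = 0.807). RAC3, the form best known from neurons, had 0.954, 0.609 and 0.877 across the controls and 0.934, 1.73 and 0.960 across the knockdowns, and the highest value was that of siR-GAL3 replicate 2. Its log2 fold change was 0.27 (95% interval -0.08 to 0.62, limma adjusted p = 0.590), and 0.11 without siR-GAL3 replicate 2. These Rac genes encode closely similar proteins, and how the authors' counting divided reads between them is not given, so their levels are uncertain to that extent.

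RAC2 was 6.14%, 7.09% and 6.53% of RAC1 in siR-Con replicates 1, 2 and 3 and 9.30%, 9.99% and 8.61% of it in siR-GAL3 replicates 1, 2 and 3. This share did not overlap between the groups (means 6.59% ± 0.479 and 9.30% ± 0.691, SD, n = 3 each, exact permutation test, two-sided p = 0.1). It was 1 of 8 ratios between genes that were computed, all chosen after the values were seen, and its Benjamini-Hochberg adjusted p over the 8 was 0.267. NCF1 over CYBB averaged 6.29 ± 2.18 and 3.01 ± 0.365, without overlap (SD, n = 3 each, exact permutation p = 0.1, adjusted p = 0.267). In the first library set it differed little, at 3.77 in siR-Con replicate 1 and 3.40 in siR-GAL3 replicate 1. CYBA over CYBB, the 2 membrane subunits, averaged 4.98 ± 0.527 and 3.87 ± 0.981 (SD, n = 3 each) and overlapped (exact permutation p = 0.2, adjusted p = 0.320).

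Ordered by their mean per transcript length, the members in Glu + siR-Con were RAC2, NCF1, CYBA, CYBB and NCF4. RAC2, NCF1 and CYBA overlapped with their neighbours in this order, as did CYBB and NCF4, and only the step from CYBA to CYBB was wider than the spread. In Glu + siR-GAL3 the order was RAC2, CYBA, NCF1, CYBB and NCF4. Here RAC2 still overlapped with CYBA and CYBA with NCF1, while CYBB, at 1.58 to 1.83, lay above NCF4, at 0.899 to 1.19.

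Whether a member passed depended on siR-GAL3 replicate 2. Without this library, CYBB (log2 fold change 0.59, adjusted p = 0.0222), RAC2 (0.41, adjusted p = 0.0243) and CYBA (0.41, adjusted p = 0.0445) all passed in limma, 3 of the 4 members tested, against 1.02% of all genes tested that passed and were higher. With the library set as a block, which gives that library no weight either, only CYBB passed (0.56, adjusted p = 0.0199), against 0.895% of all genes. RAC2 and CYBA then had adjusted p-values of 0.0530 and 0.0730. The 2 fits use nearly the same libraries and are not separate checks. Since the members were chosen with earlier results of these data known, their share beside all genes is a description only. CYBB was also among the genes tested only through its knockdown values.

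**Figure D3:**
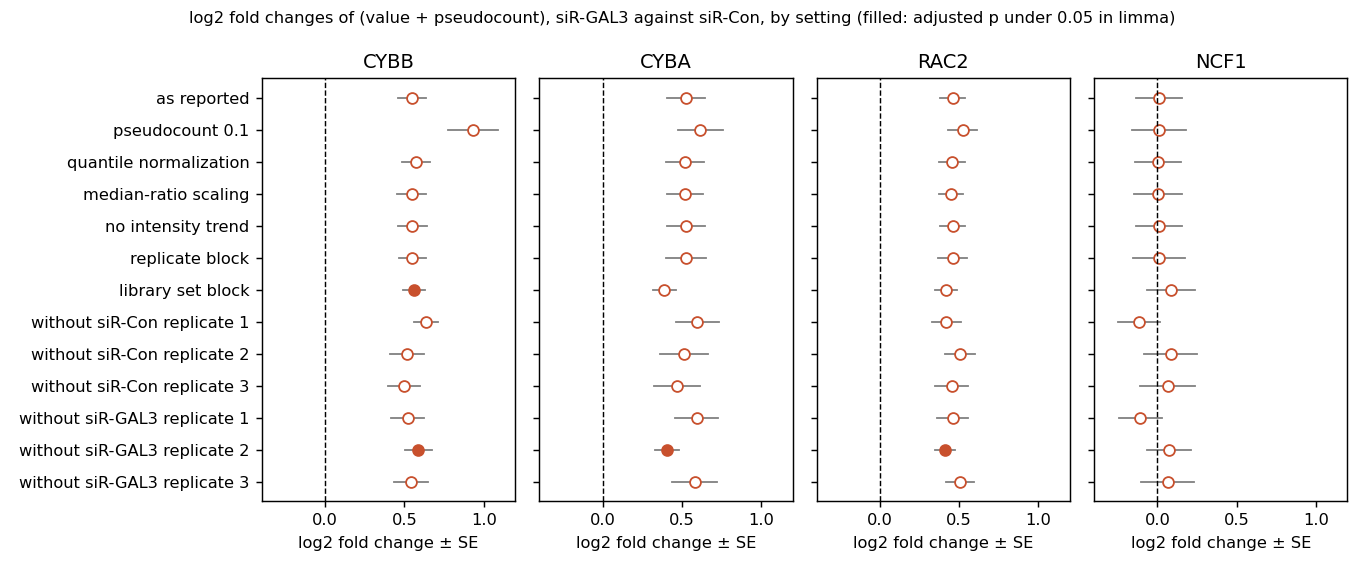
Log2 fold change of (value + 1, or + 0.1 where stated) ± standard error (horizontal axes) of CYBB, CYBA, RAC2 and NCF1 as reported and under 12 other settings (rows), with filled points where the limma adjusted p was under 0.05. CYBB, CYBA and RAC2 stay above 0 throughout and are filled without siR-GAL3 replicate 2, CYBB also with the library set as a block, whereas NCF1 stays near 0 and lies below it without siR-Con replicate 1 or siR-GAL3 replicate 1.

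Regulators of Rac lay on both sides of 0. Of the 14 genes in their list, 8 were tested, 3 of them higher and 5 lower in the knockdowns. The median of their log2 fold changes was -0.05, while 4247 of all genes tested were higher and 4248 lower. ARHGDIB, an inhibitor that holds small GTPases such as Rac in the cytosol of blood-derived cells, averaged 2.08 ± 0.0999 and 3.30 ± 0.232 (SD, n = 3 each). Its log2 difference was 0.48 (limma adjusted p = 0.109, and 0.0138 without siR-GAL3 replicate 2). VAV1, a Rac exchange factor of the same cells, averaged 1.28 ± 0.0569 and 1.59 ± 0.166, and its more widely expressed relative VAV2 averaged 1.93 ± 0.133 and 1.64 ± 0.198 (SD, n = 3 each). VAV1 was higher without overlap and VAV2 lower without overlap, as were 871 of the 8495 genes tested in each direction.

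Among kinases and lipid enzymes that act before the oxidase, 11 of 19 were tested, 7 higher and 4 lower, with a median log2 fold change of 0.01. The 3 genes with an unadjusted p under 0.05 were all higher. Of these, LYN, a Src family kinase of phagocytes, had a log2 fold change of 0.26 (limma adjusted p = 0.517), and PAK1, a kinase activated by Rac, had 0.19 (adjusted p = 0.552).

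Receptors that trigger the oxidase had 10 of 18 genes tested, 7 higher and 3 lower, with a median log2 fold change of 0.27. An unadjusted p under 0.05 was found for 6, all of them higher, and no adjusted p was under 0.05. Over all genes tested, 4.41% were higher at an unadjusted p under 0.05. FCER1G, the signalling chain of activating Fc receptors, averaged 11.8 ± 0.988 and 16.7 ± 1.39 (SD, n = 3 each), with a log2 difference of 0.47 (limma adjusted p = 0.176, and 0.0352 without siR-GAL3 replicate 2). FCGR3A, an Fc receptor that uses this chain, had a log2 fold change of 0.39, and IFNGR1, the ligand-binding chain of the interferon gamma receptor, of 0.32 (limma adjusted p = 0.499 and 0.316). Without siR-GAL3 replicate 2, the log2 fold change of FCGR3A was 0.26.

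Of 9 transcription factors linked to these genes, 4 were tested and all 4 were higher. SPI1, the gene of PU.1, averaged 1.28 ± 0.116 and 1.72 ± 0.348 (SD, n = 3 each), with overlapping groups, a log2 fold change of 0.25 (limma adjusted p = 0.574) and a ratio of 1.60 within the first library set and of 0.987 within the second.

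Enzymes that remove superoxide and peroxide stood near the centre of all genes, the median log2 fold change being 0.02 over 14 tested genes of 16, 8 higher and 6 lower. GPX3, PRDX5 and SOD2 had log2 fold changes of 0.36, 0.45 and 0.29 and the smallest p-values (limma adjusted p = 0.506, 0.514 and 0.529). PRDX5 was highest in siR-GAL3 replicate 2, and its log2 fold change was 0.26 without that library. SOD2, the mitochondrial enzyme that turns superoxide into peroxide, averaged 4.88 ± 0.719 and 6.16 ± 0.512 (SD, n = 3 each).

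Markers of microglia were mostly higher in the knockdowns as well, though none passed after adjustment over all genes. Of 15 markers, 14 were tested, 12 higher and 2 lower, with a median log2 fold change of 0.17 (range -0.08 to 0.57). Of these 14, 6 were higher without overlap, where 10.3% of all genes tested were. The summed level of the 15 markers was between 133.4 and 160.7 in the Glu + siR-Con libraries and between 167.3 and 190.1 in the Glu + siR-GAL3 libraries. CD68, PTPRC and AIF1 had log2 fold changes of 0.54, 0.43 and 0.57, beside 0.55, 0.53 and 0.46 for CYBB, CYBA and RAC2. Without siR-GAL3 replicate 2, CD68, PTPRC and AIF1 passed in limma (adjusted p = 0.0071, 0.0183 and 0.0169). CX3CR1, P2RY12 and CSF1R, picked here after their values were seen, had 0.02, 0.02 and 0.08. The library sets differed for them, with ratios of 1.65, 1.37 and 1.53 within the first and 0.989, 0.961 and 1.07 within the second. For each of them siR-GAL3 replicate 2, which had no control in its set, was the lowest knockdown library. The median over the 4 tested members was 0.49. The part of microglial RNA in the difference of the oxidase genes was not tested.

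Neutrophils are the cells best known for this oxidase, and their markers were low in all libraries. Of 9 neutrophil and monocyte markers 7 were listed, none had a mean of at least 1, and their summed level was between 0.418 and 0.571 in the 6 libraries. MPO, ELANE, PRTN3, S100A8, S100A9 and CAMP stayed below 0.1 in every library. CSF3R was the highest of the list, with means of 0.398 ± 0.0515 and 0.496 ± 0.0502 (SD, n = 3 each).

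No marker of another cell type passed after adjustment over all genes either. Of 7 astrocyte markers, all tested, 5 were lower, with a median log2 fold change of -0.21, and the 3 with the smallest p, SLC1A2, GFAP and ALDH1L1, had -0.45, -0.31 and -0.26. Without siR-Con replicate 1, GFAP was at -0.20. Among 4 tested fibroblast markers 3 were lower, COL3A1 and COL1A1 with -0.50 and -0.42. The 4 tested neuron markers had a median of 0.04, the 6 oligodendrocyte markers of 0.16 and the 4 tested oligodendrocyte progenitor markers of 0.05. No endothelial marker reached the filter. The part of these shifts in the values of the members was not tested.

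**Figure D4:**
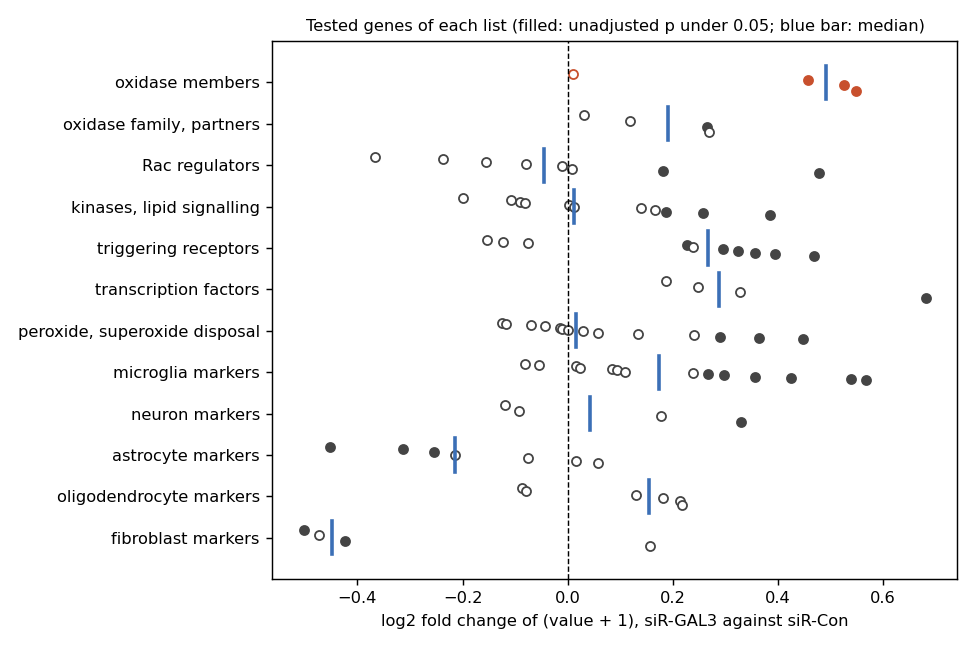
Log2 fold change of (value + 1) in the knockdowns against the controls (horizontal axis) for the tested genes of each list (rows). Points are genes, filled where the unadjusted limma p was under 0.05, and blue bars are medians. CYBB, CYBA and RAC2 lie at 0.46 to 0.55, with the microglia markers spread from -0.08 to 0.57 and the astrocyte and fibroblast markers mostly below 0.

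Over the 6 libraries, the log2 values of CYBA, CYBB and RAC2 went together (Pearson's r = 0.838 to 0.887 between pairs, the group difference included). NCF1 did not go with them, with r = -0.301 to CYBA, -0.113 to CYBB and 0.147 to RAC2. A mean profile was made from the standardized log2 values of the 4 tested members, NCF1 included. Of 2597 genes whose mean reached 5, RNASET2, a lysosomal ribonuclease, was the most like it (Pearson's r = 0.990, n = 6 libraries). RNASET2 had values of 12.9, 13.2 and 13.4 across the controls and 18.9, 17.8 and 16.6 across the knockdowns. The next were CTSS, a lysosomal protease of microglia (r = 0.983), QARS1, a transfer RNA synthetase (r = 0.962), SGK1, a kinase (r = 0.960), and FCRL2, an Fc receptor-like gene (r = 0.957). The most opposite were SLC6A8, the creatine transporter (r = -0.983), JAM2, a junction protein (r = -0.981), SEC61A2 (r = -0.977), TMBIM1 (r = -0.970) and HACD3 (r = -0.969). All 10 were selected for this likeness, the group difference is part of it, and no test was made.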

How the data were processed

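RNA of 6 libraries was sequenced, 3 per group. STAR alignment, HTSeq counting per gene and FPKM came from the authors. Removal of batch effects, standardization and a correction for differences within groups followed, with tools not given in the sources used here. The deposited values are therefore treated as a score on a linear scale derived from FPKM, with 2376 of 17648 genes holding a value below 0 and no depth recoverable. How selection was done differs between sources (polyadenylated RNA in the supplement, ribosomal depletion in the labels). Values below 0 were set to 0 and limma (version 3.58.1, R 4.3.3, variance trend on intensity) was run on log2(value + 1) of 8495 genes whose mean reached 1. P-values were adjusted by Benjamini-Hochberg over all genes tested. Single values and ratios were compared by exact permutation in Python 3.11.15 with SciPy 1.17.1. Columns were mapped to samples by name. Equal values other than 0 defined the library sets: libraries of one set shared 1312 to 1463 of them and libraries of different sets 238 to 264. The fit was tested on simulated data before use.

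The members and gene lists were chosen with earlier results of these data known. The genes named are the members, all genes of the family and partner list, up to 3 genes with the smallest p in each other list, and the 5 most like and 5 most unlike genes, except that some genes of these lists are not reported here. Others (CX3CR1, P2RY12, CSF1R, CSF3R, RBFOX3, MAP2, GPX4 and the low neutrophil markers) were chosen after their values were seen. All 5 member symbols matched GRCr8, whose RefSeq promoters were used for sequence only. Alternatives were another pseudocount, filter or scaling, no intensity trend, values below 0 as missing, no logarithm, blocks by replicate number or library set, and each library left out in turn, which for the named list genes was added after seeing the data.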

Additional observations from a re-analysis of the deposited data

How the results depend on the processing

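CYBA, CYBB, RAC2, NCF4, RAC1 and RAC3 stayed higher in Glu + siR-GAL3 under every alternative run for them. Dropping single libraries gave log2 fold changes of 0.41 to 0.60 for CYBA, 0.50 to 0.63 for CYBB, 0.41 to 0.50 for RAC2, 0.20 to 0.30 for NCF4 and -0.12 to 0.084 for NCF1, the median over the members was 0.41 to 0.52, and 0 to 3 members had an adjusted p under 0.05 in limma. NCF1 was at -0.12 without siR-Con replicate 1 and at -0.11 without siR-GAL3 replicate 1. The highest count, 3, came without siR-GAL3 replicate 2. The cause was not tested. With the library set as a block, 1 member passed, CYBB, at 0.56. Without logarithms the median difference of the members was 1.60 units, on another scale. Correlations of same-numbered deviations were -0.170, -0.0699 and 0.0441. They cannot show whether replicate numbers pair the libraries, because the values had been corrected within groups. Replicate 1 of both groups did form a library set. With the replicate block, the log2 fold changes were unchanged by construction, 0.55 for CYBB and 0.53 for CYBA with adjusted p-values of 0.167 and 0.422, no member passed, and 6 of 8495 genes had an adjusted p under 0.05 against 0 without it. CYBB, NCF4 and RAC3 lie below a minimum mean of 5 and have no value there. Without depths, no counting error can be given, and 3 libraries per group after a correction within groups limit what the spread shows.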
